A study of Homo sapiens with 8 samples.

Results

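The chemokine CXCL12 and its receptors CXCR4 and ACKR3 were measured in LNCaP prostate cancer cells after transfection with siRNA against GATA2. Every probe of the array whose RefSeq accession belongs to one of these 3 genes was taken, without regard to its signal. This gave 6 probes of 42405 non-control probes, 4 for CXCL12 and 1 each for CXCR4 and ACKR3, and all 6 were among the 35546 probes tested. LNCaP is a line established from a lymph node metastasis of prostate cancer. The cells received either siGATA2 or a scrambled control siRNA, called siControl, at 30 nM in both groups, and RNA was taken 72 h later. Each group had 4 replicates, 1 on each of 8 one-colour Agilent arrays, and all 8 arrays sat on 1 slide. The labels do not say whether the replicates were separate cultures, which the standard errors and p-values below assume. Arrays 1, 2 and 3 of siGATA2 and array 4 of siControl lay in slide row 1, and the others in slide row 2. The series compares these 2 groups to ask which genes respond to GATA2 silencing.

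CXCL12, also named stromal cell-derived factor, is a chemokine that stromal cells of bone marrow and other tissues secrete, and it guides the migration of cells that carry its receptors. CXCR4 is a G protein-coupled receptor that signals through inhibitory G proteins, and in prostate cancer it is known for its part in homing to bone. ACKR3, also named CXCR7, is an atypical receptor that binds CXCL12, recruits arrestin and removes the chemokine from the surroundings of the cell. Splicing of the CXCL12 transcript gives several isoforms that share their first exons and differ at the carboxy terminus, among them alpha, beta and gamma. The probe of accession NM_199168 stands for the alpha isoform, that of NM_000609 for beta, and 2 probes carry the accession of gamma, NM_001033886. Each array value of a spotted probe is a hybridization signal from the bulk culture, so fewer cells expressing a transcript and less transcript per cell cannot be told apart.

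The sequence just upstream of CXCL12 and CXCR4 is given here because it is what the RefSeq promoter table of assembly GRCh38.p14 holds for these genes, and because GATA factors bind short motifs built on GATA. The windows are the 250 bases before the start, read 5′ to 3′ on the minus strand, at chr10:44385098-44385347 for CXCL12 and at chr2:136118150-136118399 for the most upstream of 3 CXCR4 starts in the table. Capitals mark the GC box GGGCGG on either strand and, in CXCR4, the letters GCGCATGC of the NRF1 motif on both strands, 2 matches that overlap.
CXCL12: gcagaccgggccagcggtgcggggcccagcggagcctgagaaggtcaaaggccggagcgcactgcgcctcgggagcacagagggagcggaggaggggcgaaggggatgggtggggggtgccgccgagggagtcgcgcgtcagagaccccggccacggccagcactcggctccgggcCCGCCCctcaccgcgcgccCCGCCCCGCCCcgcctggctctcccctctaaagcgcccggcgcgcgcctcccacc
CXCR4: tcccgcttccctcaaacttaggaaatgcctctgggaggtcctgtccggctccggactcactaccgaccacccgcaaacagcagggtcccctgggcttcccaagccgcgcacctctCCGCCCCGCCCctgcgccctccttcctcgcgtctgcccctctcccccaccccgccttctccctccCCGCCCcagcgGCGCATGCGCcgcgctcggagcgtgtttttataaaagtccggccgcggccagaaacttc
The CXCL12 window held 3 GC boxes, 31 CpG dinucleotides and 78.0% G and C, against a median of 58.0% over 35116 windows of the same length. The CXCR4 window also held 3 GC boxes, with 24 CpG dinucleotides and 68.0% G and C. A GC box was present in 42.6% of all windows and the NRF1 letters in 2.63%. The GATA hexamers searched were AGATAA with A or T as the first and A or G as the last letter, and none was found on either strand of these windows, while 22.3% of all windows held at least 1 of them. The hypoxia response letters ACGTG, with A or G as the first, occurred once on either strand in the CXCR4 window and not in that of CXCL12, against 43.2% of all windows. ACKR3 has no entry in that table. These letters describe the windows and are not binding sites that were measured.

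Several facts of the arrays touch every result below. Values are log2 processed signals, quantile-normalized over the 8 arrays, and a probe was called at an adjusted p under 0.05 in limma. Between 34381 and 36974 probes were well above background on the siGATA2 arrays, against 34819 and 34020 on siControl arrays 2 and 4 and only 28498 and 24319 on siControl arrays 1 and 3. The SD of the negative control spots was 1.78 to 2.40 units on 6 arrays, but 4.49 on siControl array 1 and 7.26 on siControl array 3. GATA2, the siRNA target, gave 12.61, 12.54, 11.57 and 11.40 on the siGATA2 arrays and 11.74, 11.28, 11.09 and 11.29 on the siControl arrays. The target was therefore not lower in the libraries labelled siGATA2 (difference 0.68, adjusted p = 0.151), and every direction below rests on the sample labels. On the scale of the E1A spike-in RNA the GATA2 difference was 0.03, but there siControl array 1 read 13.20 against 10.86 to 11.42 on the other siControl arrays. The spike-in signal of that array was low, at 11.13 against 13.45 to 13.83 on the other arrays. The siGATA2 arrays read 10.99 to 12.31 on that scale. All these GATA2 values are readings of 1 probe, and whether it detects the RNA that the siRNA lowers was not tested. The cells carried markers of luminal prostate epithelium. FOLH1 had means of 15.53 in siGATA2 and 15.15 in siControl, and HOXB13 of 15.87 and 16.27.

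Of the 4 CXCL12 probes 2 fell in the siGATA2 group and the 2 others were not called in either direction. The probes that fell were those of the alpha and the beta transcript, and both were lower on all 4 siGATA2 arrays than on any siControl array. Among all probes tested, 14.4% were called lower, 7.24% were called lower by at least 2-fold and 16.6% were lower with no overlap between the groups. With 4 probes on 1 gene, of which some may read the same transcript, these are readings of 1 gene and not independent members.

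The alpha probe, A_23_P202448, was spotted 10 times on each array. It gave 6.18, 6.25, 6.42 and 6.48 on siGATA2 arrays 1 to 4 and 8.95, 8.06, 8.07 and 7.78 on siControl arrays 1 to 4. The 4 siGATA2 values lay close together, and the highest siControl value was that of array 1. The means were 6.33 ± 0.14 and 8.21 ± 0.51 (SD, n = 4), which is 3.69-fold lower in siGATA2 (log2 difference -1.88, SE 0.25, 95% interval -2.45 to -1.31, adjusted p = 0.000951 in limma). The exact two-sided permutation p was 0.0286, the smallest that 4 against 4 arrays can give.

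Single spots of the alpha probe showed the same separation. Over the spots that Feature Extraction had not marked as outliers, the processed signal ran from 63.5 to 110 units in 40 siGATA2 spots and from 210 to 336 units in 33 siControl spots. All 80 spots of the probe, marked ones included, were well above background. One marked spot on siControl array 3 read 5297 units on a local background of 587 units and was left out. The alpha probe was called lower under all 26 settings tried, with differences from -2.28 to -1.32.

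The beta probe, A_24_P412156, was present in duplicate on each array and went from measurable to not well above background. It gave 6.51, 5.68, 6.30 and 5.13 on the siControl arrays, where it was well above background on all 4. On the siGATA2 arrays, where it was well above background on none, it gave 2.31, 2.98, 2.09 and 2.56. The groups were more than 2 log2 units apart at their closest. The measured means were 5.91 ± 0.62 and 2.48 ± 0.38, with a log2 difference of -3.42 (SE 0.33, adjusted p = 0.000213 in limma). Because the siGATA2 signal was not well above background, the fall on these values is given as 9.0-fold. For this the siControl mean was set against a level for each siGATA2 array. That level was the higher of the probe's own signal and the lowest signal of any probe well above background on the array. Other settings gave smaller differences, so 9.0-fold is not a floor. In processed signal units, the 8 siGATA2 spots read 2.21 to 10.1 and the 8 siControl spots 35.8 to 123. The highest of the siControl spots was on array 3, where the duplicate spots differed, at 39.5 and 123. Only the brighter of them was well above background, so that array just met the rule for the probe. Without spots on a raised local background that array read 5.64 in place of 6.30, and the difference over all arrays was -3.25. The call was kept under all 26 settings, with differences from -4.21 to -0.97, and the smallest of them came from a background correction whose offset shrinks the folds of dim probes.

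**Figure D1:**
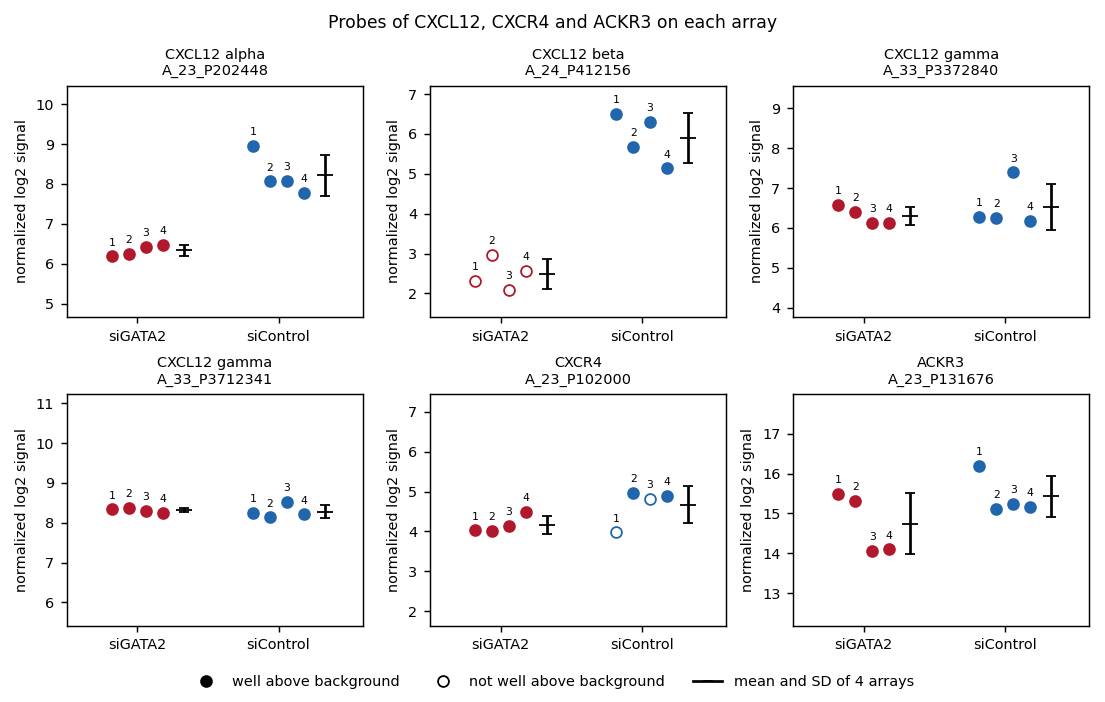
Normalized log2 signal of each of the 6 probes on each array, with array numbers beside the points, for 4 siGATA2 and 4 siControl arrays. Filled points were well above background, open points were not, and bars give the mean and SD, with the same span of log2 units in all panels. The alpha and beta probes of CXCL12 separate the groups, the 2 gamma probes do not, and the ACKR3 values of siGATA2 arrays 1 and 2 lie apart from those of arrays 3 and 4.

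The probes that carry the accession of the gamma transcript behaved otherwise. A_33_P3372840 gave 6.57, 6.39, 6.12 and 6.13 on the siGATA2 arrays and 6.27, 6.25, 7.39 and 6.18 on the siControl arrays. The groups overlapped, and siControl array 3 alone stood above the others. The means were 6.30 ± 0.22 and 6.52 ± 0.58, with a difference of -0.22 (SE 0.28, 95% interval -0.88 to 0.44, adjusted p = 0.600), and the difference was 0.07 without siControl array 3. On that array the duplicate spots read 94.2 and 279 units, against 51.0 to 97.8 units on the other siControl arrays. The interval does not reach a fall of 2-fold.

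The second gamma probe, A_33_P3712341, was well above background on all 8 arrays and varied least among the 6 probes. It gave 8.33, 8.38, 8.30 and 8.26 in siGATA2 and 8.25, 8.13, 8.53 and 8.21 in siControl. The means were 8.32 ± 0.05 and 8.28 ± 0.17, with a difference of 0.04 (SE 0.11, 95% interval -0.23 to 0.30, adjusted p = 0.844). Here too siControl array 3 was the highest of its group, and its duplicate spots read 229 and 600 units, on a local background of up to 46.0 units against at most 26.0 for this probe on the other arrays. With spots on a raised local background left out, siControl array 3 read 7.86, the groups no longer overlapped and the difference was 0.20 in the opposite direction to the alpha and beta probes, still not called. Neither gamma probe was called under any of the 26 settings.

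**Figure D2:**
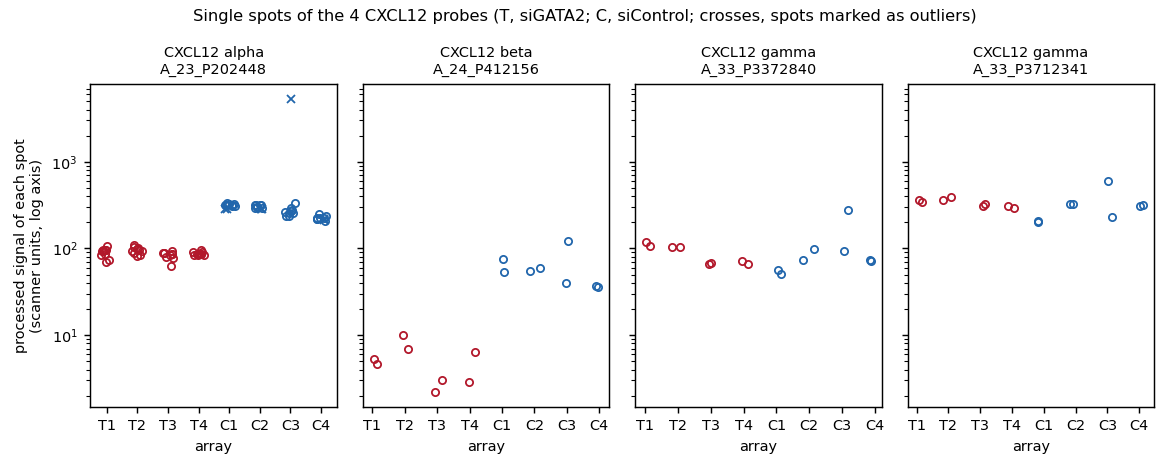
Processed signal of every single spot of the 4 CXCL12 probes, in scanner units on a log axis, for siGATA2 arrays T1 to T4 and siControl arrays C1 to C4; crosses are spots that Feature Extraction marked as outliers. Spots of the alpha and beta probes do not overlap between the groups, while those of both gamma probes do, and the widest duplicate spots lie on C3.

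Whether the 4 probes changed unequally was tested within arrays. Scaling an array by 1 factor cancels in such ratios, but quantile normalization, which the values used here had undergone, does not. The log2 ratio of each of the 6 probe pairs was formed on each array and compared between the groups by an exact two-sided permutation test. In 5 pairs the groups did not overlap (exact p = 0.0286 each, the smallest possible, 0.0343 after adjustment over 6 pairs), which is all but the pair of gamma probes (difference -0.26, exact p = 0.343). The alpha probe fell relative to both gamma probes, with differences of -1.66 against A_33_P3372840 and -1.92 against A_33_P3712341. Relative to the same probes, the differences of the beta probe were -3.20 and -3.46. The ratio of alpha to beta was higher by 1.54 in siGATA2. Without normalization the alpha differences were -1.65 and -1.83, the beta differences -3.59 and -3.76, and that of alpha over beta 1.93. The size of these beta differences is not settled, because the beta signal was not well above background in siGATA2. With the offset background correction they were -0.77 and -0.97 against the gamma probes and -0.34 for alpha over beta. For alpha against A_33_P3372840 the adjusted p was 0.0686 when any 1 of the siGATA2 arrays was left out, with differences from -1.52 to -1.77. These ratios show unequal change between probes and leave the level of the gene as a whole unsettled. The mean over the 4 probes differed by -1.37 (adjusted p = 0.00115), whereas the brightest probe on its own, a gamma probe, differed by 0.04. Where the probes hybridize on the shared exons and whether the gamma probes read the gamma transcript was not tested.

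**Figure D3:**
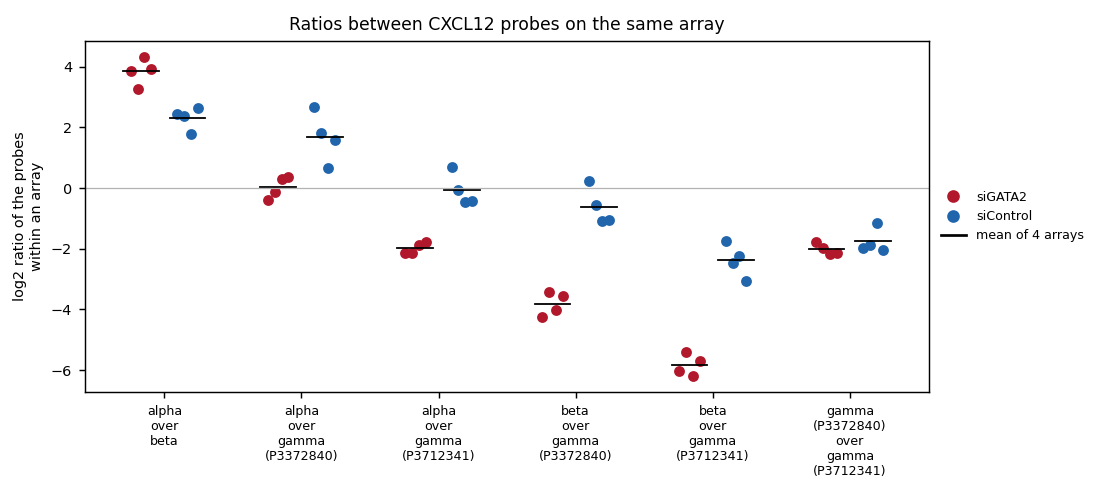
Log2 ratio of each pair of CXCL12 probes on the same array, for 4 siGATA2 and 4 siControl arrays, with the mean of each group as a line. Only the distance between the groups within a pair can be read, since 2 probes have no common scale. In 5 pairs the groups are apart and in the pair of gamma probes they overlap.

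CXCL12 is known as a product of stromal, endothelial and some blood cells, so markers of those cells were read on the same arrays. Of 10 fibroblast markers 6 were tested, and COL3A1, LUM, FAP and POSTN were too dim to enter. The mean log2 signal of the tested fibroblast markers ran from 4.68 to 5.04 over the siGATA2 arrays and from 4.82 to 5.10 over the siControl arrays. PDGFRB, a growth factor receptor of mural and stromal cells, was lower by 2.83 log2 units (adjusted p = 0.000823), and THY1, a surface protein of fibroblasts, was higher (adjusted p = 0.0101), well above background on 4 siGATA2 arrays and on 0 siControl arrays. COL1A1 differed by -0.13 and DCN by -0.29, neither called. The means of the 7 leukocyte markers tested ran from 8.33 to 8.44 in siGATA2 and from 7.66 to 8.03 in siControl, with CD68, a lysosomal protein, higher by 1.999 (adjusted p = 0.000628) and PTPRC higher by 0.73 (adjusted p = 0.00818). Of 4 endothelial markers tested, with TEK and ERG too dim, VWF was lower by 0.96 (adjusted p = 0.00161), and their means ran from 5.995 to 6.45 and from 6.36 to 6.51. The part of such cells in the CXCL12 signal was not tested.

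CXCR4 was dim in both groups, and its difference was not called. Its probe, A_23_P102000, was spotted 10 times and gave 4.02, 4.01, 4.14 and 4.49 on the siGATA2 arrays and 3.98, 4.98, 4.82 and 4.89 on the siControl arrays. Arrays 2, 3 and 4 of siControl lay above all siGATA2 arrays, and siControl array 1 lay below them. The means were 4.16 ± 0.22 and 4.67 ± 0.46, with a difference of -0.50 (SE 0.24, 95% interval -1.06 to 0.05, adjusted p = 0.168, exact permutation p = 0.143). The probe passed the background test on 4 siGATA2 arrays but on only 2 siControl arrays. On siControl arrays 1 and 3, the arrays with the widest negative controls, 1 of 10 spots each passed. That spot was marked as an outlier on both arrays and was left out. Unmarked spots read 12.95 to 29.7 units in siGATA2, and they read 5.87 to 12.3 units on siControl array 1 against 16.6 to 26.4 on array 3 and 23.4 to 47.4 on arrays 2 and 4. Array 3 thus lay above the siGATA2 arrays only after normalization, its log2 signal before it being 4.35 against 4.08 to 4.54. Without siControl array 1 the difference was -0.73 (adjusted p = 0.00933), and with siControl arrays 2 and 4 alone it was -0.77 (adjusted p = 0.0241). Array weights gave -0.75 (adjusted p = 0.00598) and keeping the marked spots -0.74 (adjusted p = 0.0466). Before normalization the difference was -0.06, with 3.02 on siControl array 1. A fall of CXCR4 was therefore called in 4 of 26 settings, with negative differences in all 26.

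ACKR3 was well above background in every spot on every array, and no non-control spot of the arrays was saturated. Its probe, A_23_P131676, gave 15.49, 15.32, 14.06 and 14.10 on the siGATA2 arrays and 16.19, 15.11, 15.24 and 15.16 on the siControl arrays. The siGATA2 arrays split into arrays 1 and 2, with a mean of 15.41, and arrays 3 and 4, with a mean of 14.08, and siControl array 1 stood above its group. The means were 14.74 ± 0.77 and 15.42 ± 0.52, with a difference of -0.68 (SE 0.41, 95% interval -1.64 to 0.27, adjusted p = 0.266, exact permutation p = 0.286). Before normalization the groups did not overlap, with 14.22 to 15.16 in siGATA2 and 15.41 to 15.57 in siControl, and the difference was -0.82 (exact permutation p = 0.0286). In processed units the 8 siGATA2 spots read 18746 to 36950 and the 8 siControl spots 42439 to 49830. Scaling to the 75th percentile of each array let the groups overlap, with a difference of -0.85 (exact permutation p = 0.0857). Scaling to the E1A spike-in RNA gave -1.46 with no overlap, but there siControl array 1 read 17.77 against 15.07 to 15.30 on the other siControl arrays. The spike-in mean itself was 11.13 there, whereas the 7 other arrays had 13.45 to 13.83, and without siControl array 1 this scaling gave -0.80 (adjusted p = 0.137 in limma).

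The samples' titles carry a letter whose meaning the labels do not give, and the normalized ACKR3 values followed it. Arrays 1 and 2 of siGATA2 have the letters A and B and arrays 3 and 4 the letters E and F, while siControl array 1 has B and arrays 2, 3 and 4 have D, F and G. Among titles with A or B, the siGATA2 values were 15.32 and 15.49 and the single siControl value 16.19, a difference of -0.79. Among titles with D to G, the siGATA2 values were 14.06 and 14.10 and the siControl values 15.11 to 15.24, a difference of -1.09. The siGATA2 arrays were thus the lower ones within both sets of letters. Before normalization the siGATA2 arrays were split too, with 15.16 and 15.06 on arrays 1 and 2 and 14.24 and 14.22 on arrays 3 and 4. The siControl arrays were not split before it, with 15.56 on array 1 and 15.57, 15.41 and 15.42 on arrays 2, 3 and 4. With the 2 sets as a block, a fit chosen after seeing these values, the ACKR3 difference was -0.98 (SE 0.09, adjusted p = 0.000191 in limma), the only one of 26 settings that called it. In that fit 20.2% of all probes were called lower and 25.3% higher, against 14.4% and 12.5% without it. The same letter occurred at different places on the slide, B at row 1, column 3 and row 2, column 4, and F at row 2, columns 1 and 3. Whether the letters mark cultures, days or positions outside the slide was not tested.

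CXCR4 also separated by letter after normalization, with 3.98 to 4.02 on all arrays of A and B and 4.14 to 4.98 on all arrays of D to G. Before normalization the sets overlapped. The siGATA2 arrays of A and B then read 4.34 and 4.32 and siControl array 1 read 3.02, against 4.08 to 5.20 on the arrays of D to G. After normalization CXCR4 differed by 0.04 among A and B, where siControl array 1 is the only control, and by -0.58 among D to G. The block gave -0.36 (adjusted p = 0.0939 in limma). The alpha probe of CXCL12 differed by -2.74 among A and B and by -1.52 among D to G, and the beta probe by -3.87 and -3.38. GATA2 itself was higher in siGATA2 within both sets, by 0.84 among A and B and by 0.27 among D to G.

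**Figure D4:**
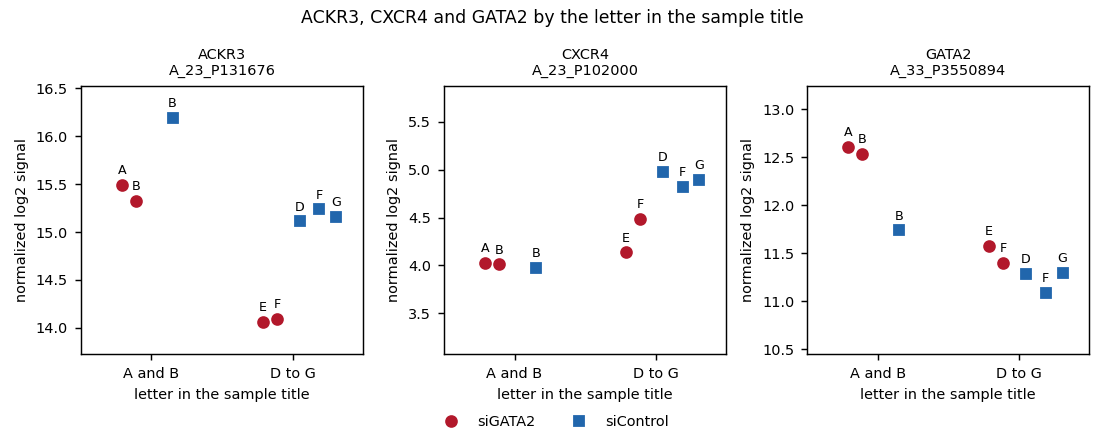
Normalized log2 signal of the ACKR3, CXCR4 and GATA2 probes on each array, split by the letter in the sample title, which is printed at each point; circles are siGATA2 and squares siControl, and all panels have the same span. Within both sets of letters the ACKR3 signal is lower and the GATA2 signal higher on the siGATA2 arrays, and the single siControl array of the set A and B lies at the CXCR4 level of the siGATA2 arrays.

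For each member the 5 genes with the most similar profile over the 8 arrays were found by Pearson's r, as a description. The alpha probe ran with CTNNBIP1, RASSF3, CYP2U1, GPR137B and ZNF215 (r from 0.995 to 0.996), with log2 differences between -1.31 and -0.53. The beta probe ran with DCP1A, ITPA, PRAC1, LAMC3 and LINC01114 (r from 0.987 to 0.993). PRAC1, a small protein of prostate and colon, fell by 1.62, and LAMC3, a laminin chain, fell by 1.47. The profile of A_33_P3372840 was that of siControl array 3: its nearest gene, ADHFE1, gave 9.95 there and 4.35 to 5.70 on the 7 other arrays. ACKR3 ran with DHX34, PRSS8, ANKRD20A8P, HEMK2 and FCGBP (r from 0.996 to 0.998), and all 5 showed the same split by title letter. PRSS8, the membrane protease prostasin, gave 15.21 and 15.09 on siGATA2 arrays 1 and 2 and 14.19 and 14.26 on arrays 3 and 4. CXCR4 ran with PSMD10, LYPD8, FKBPL, POLR1C and THRSP (r from 0.985 to 0.986), which were low on siControl array 1 as CXCR4 was. Over 8 arrays and 35546 probes, high values of r arise for some genes whatever the profile. The patterns that these genes share with the members, the split by title letter included, follow from choosing them by r and add no support.

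Genes that act with CXCL12 were counted from a fixed list, by the mean over a gene's probes. Among all 28876 genes tested, 13.9% were called lower and 12.3% higher, and the median difference was 0.09. A target without a gene symbol was counted there under the array's own name for it. These shares are thus not of named genes alone, whereas the lists hold only named genes. Quantile normalization left the median of all probes at 0.08, while scaling to 7 E1A spike-in probes put it at -0.43 with siControl array 1, whose spike-in signal was low, and at -0.01 without it. On the spike-in scale with all 8 arrays no gene of the 6 lists was called higher, and 2 axis partners, 4 G protein subunits and 1 transcription factor were called lower. Without siControl array 1, 4 axis partners and 2 transcription factors were called higher on that scale and no gene of the 4 other lists, and 4 axis partners, 6 G protein subunits, 3 signalling genes and 1 transcription factor were called lower. The alpha and beta probes of CXCL12 kept their calls in both. The values that follow are those after quantile normalization.

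Of 17 tested partners of the axis 3 fell, 4 rose and 10 were not called, with a median of -0.03. DPP4, the peptidase that removes the first residues of CXCL12, gave 8.21, 8.16, 8.66 and 8.68 in siGATA2 and 9.83, 11.16, 10.64 and 10.93 in siControl. It fell by 2.21 log2 units (SE 0.29, adjusted p = 0.00106), with no overlap. GRK6 and GRK3, kinases that phosphorylate activated receptors, fell by 1.29 and 0.86. Among the genes that rose, SDC4, a heparan sulfate proteoglycan that can bind CXCL12, was higher by 1.25 (adjusted p = 0.000699), GRK5, another receptor kinase, by 1.21 and MMP9, a protease that can cleave CXCL12, by 0.80. ADM, adrenomedullin, which ACKR3 also takes up, was the fourth that rose, by 0.74. MIF, an alternative ligand of both receptors, differed by -0.03, and the arrestin genes ARRB1 and ARRB2 by -0.23 and 0.07, none of them called.

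Of 42 other chemokine ligands 30 were tested, 29 of these were not called, and 22 of the 30 were well above background throughout a group. CCL3, a ligand of inflammatory cells, was the only one called, higher by 0.68 (adjusted p = 0.0328), and 2 of 4 siControl arrays had it well above background. Of 15 tested receptors 1 fell and 1 rose: CCR7, a lymph node homing receptor, by -0.53 (adjusted p = 0.0380), and CCR3, an eotaxin receptor, by 0.79 (adjusted p = 0.0445). The 13 others were not called, and both called receptors were dim, at 5.03 against 5.56 and at 4.28 against 3.49.

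Chemokine receptors signal through G protein subunits. Of 16 subunits tested, 4 fell, all by at least 2-fold, 2 rose and 10 were not called, with a median of -0.01. GNB4, a beta subunit, gave 7.67, 7.43, 8.26 and 8.26 in siGATA2 and 10.94, 11.30, 11.37 and 11.26 in siControl, a fall of 3.31 log2 units (SE 0.22, adjusted p = 4.71e-05). GNG4, a gamma subunit, fell by 1.69 and GNA11, an alpha subunit of the Gq class, fell by 1.42. GNAI2, one of the inhibitory alpha subunits that couple to CXCR4, was a further gene that fell, from 15.23 ± 0.09 to 13.90 ± 0.08 (adjusted p = 6.85e-05), while GNAI1 at -0.93 and GNAI3 at 0.16 were not called. The beta subunits GNB5 and GNB1 rose by 1.00 and 0.97.

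Of 32 tested genes of chemotactic signalling 2 fell, 6 rose and 24 were not called, with a median of 0.14. PLCB1, a phospholipase downstream of G proteins, fell by 0.83, and PIK3R1, a regulatory subunit of phosphoinositide 3-kinase, fell by 0.64. The largest rises were those of CRK, an adaptor of focal adhesions, by 1.00, PTK2, the focal adhesion kinase, by 0.91, and PIK3CB, a catalytic subunit, by 0.70. Of 12 transcription factors linked to CXCL12 or CXCR4, SOX4 fell by 1.12 and 3 rose, EPAS1, a hypoxia-inducible factor, by 1.404, FOXO1 by 1.27 and NRF1 by 0.71. HIF1A differed by 0.36 and was not called.

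**Figure D5:**
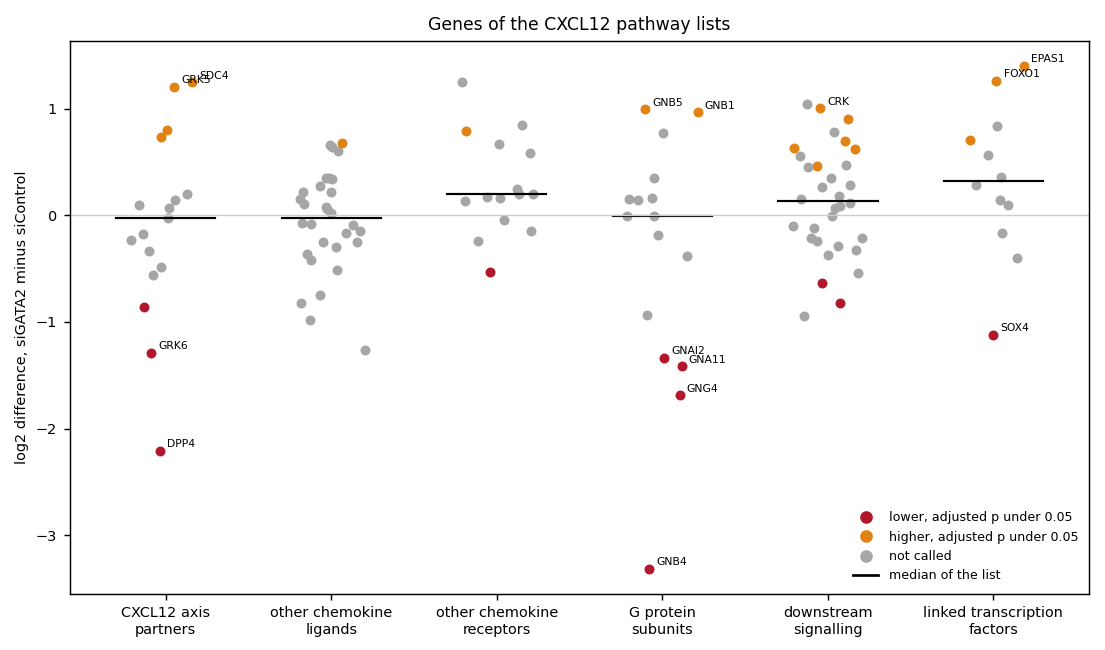
Log2 difference between siGATA2 and siControl (4 arrays each) of every tested gene of the 6 pathway lists, 1 point per gene, coloured by its call, with the median of each list as a line. Called genes with a difference of at least 0.95 are named. GNB4 has the largest fall, -3.31, and among the 30 other chemokine ligands 1 is called.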

How the data were processed

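RNA of 4 siGATA2 and 4 siControl replicates of LNCaP cells was hybridized to one-colour Agilent arrays. The authors deposited spot intensity tables written by Agilent Feature Extraction 11.0.1.1, and a matrix of log2 values, whose differences match quantile normalization of the processed signal (r of at least 0.999999 per array). Their methods name quantile normalization, removal of dim and unannotated probes and a t-test. The log2 processed signal was averaged here over the spots not marked as outliers and quantile-normalized in limma 3.58.1 (R 4.3.3). Annotated probes with a mean of at least 3 were tested with lmFit and eBayes and Benjamini-Hochberg adjustment. A probe counted as well above background where the mean of that flag over its unmarked spots was at least 0.5. The number of arrays limits the precision. Accessions were named through a RefSeq table of GRCh38.p14, which gave 26364 probes a symbol.

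The members, gene lists and tests were chosen with earlier results of these data known. All probes of the members were described. In each list the 3 largest falls and rises among called genes well above background on every array of a group were named, with the cell type markers, GATA2 and the 5 most similar genes. The genes MIF, ARRB1, ARRB2, GNAI1, GNAI3, HIF1A, ADM and GNAI2 were added after their values were seen. The labels do not say whether replicate numbers pair the samples, and they were used only as a block among the alternatives. Alternatives changed scaling, background correction, filter, weights, blocks, spots and arrays. Probe sequences were not used here. One of the markers is not reported here.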

Additional observations from a re-analysis of the deposited data

Results flagged for a closer look

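Of 26 groups of 4 values, 4 held an array far from the 3 others (gap over range above the 95% critical value for 4 samples), and chance marks about 1 group in 20. On siControl array 3 the CXCL12 probe A_33_P3372840 read 7.39, against 6.18 to 6.27 on the other siControl arrays, and its ratio to A_33_P3712341 was -1.13 there against -2.03 to -1.89. On siControl array 1 CXCR4 read 3.98 against 4.82 to 4.98, and ACKR3 read 16.19 against 15.11 to 15.24. These are the 2 arrays with the widest negative control spots. Their part in these values was not tested.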

How the results depend on the processing

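The alpha and beta probes of CXCL12 kept their direction and their call under every alternative run. The gamma probes were called under none, and the sign of their small differences turned: A_33_P3372840 gave 0.0052 without normalization, 0.034 with array weights, 0.087 with siControl arrays 2 and 4 only, and 0.068 with siControl array 3 and spots on a raised local background left out, and A_33_P3712341 gave -0.45 with E1A scaling and -0.00029 with normexp. The CXCR4 difference was called with array weights (-0.75), siControl arrays 2 and 4 only (-0.77) and marked spots kept (-0.74), and that of ACKR3 with title letters as a block (-0.98). The mean over the CXCL12 probes, -1.37, became 0.036 with the brightest probe, and the alpha to beta ratio became -0.34 with normexp. The causes were not tested.

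Leaving out 1 array gave -2.03 to -1.64 for the alpha probe, -3.68 to -3.22 for beta, -0.33 to 0.069 for A_33_P3372840, -0.013 to 0.12 for A_33_P3712341, -0.73 to -0.40 for CXCR4, where only the fit without siControl array 1 was called, and -0.93 to -0.43 for ACKR3. For alpha over A_33_P3372840 the range was -1.9996 to -1.33, with 4 of 8 not passing.

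Probes lower and higher by at least 2-fold numbered 2575 and 1672, with no fold threshold 5126 and 4449, and leaving out 1 array 2384 to 2765 and 1447 to 1950. The higher count was 166 with E1A scaling, beside 2388 lower, which rested on siControl array 1 (1443 higher and 3441 lower without it), 1013 with normexp, beside 1739, and 2599 with array weights, beside 2962. With the replicate block the alpha probe differed by -1.88 (adjusted p = 0.00884 in limma), ACKR3 by -0.68 (adjusted p = 0.123) and no member's call changed. Slide row, over which the groups were unevenly spread, gave as a block -1.69 for the alpha probe (adjusted p = 0.00610 in limma). For the beta probe it gave -3.14 (adjusted p = 0.00159 in limma), and again no member's call changed. Same-numbered arrays deviated together by correlations of -0.30 to 0.52, which does not settle whether the numbers pair the samples. The spots on a raised local background, the marked spots, the title letters and E1A scaling without siControl array 1 were taken up after seeing the data. Dim signals limit CXCR4 and the siGATA2 values of the beta probe.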
